A study of Mus musculus with 6 samples.

Results

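The proteasome genes described here are the mouse genes whose symbols start with Psma to Psmg, the letters that name the subunits, activators, inhibitor and assembly chaperones of the proteasome. The symbol rule took 49 of the 55291 genes in the deposited table, and no measured value entered the choice. Within them, Psmb8, Psmb9, Psmb10, Psme1 and Psme2, which interferon gamma induces, were set beside 32 constitutive subunits. Transcripts were measured in bone marrow-derived macrophages (BMDM) of the mouse, which are phagocytes raised from marrow precursors in a dish. The series held 6 poly(A) RNA libraries, 3 from BMDM pretreated with apoptotic cells (AC) and 3 from untreated BMDM. For the mice, the strain, sex and age were not given in the sources used, nor was it stated where the apoptotic cells came from, how many were added or when.

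The proteasome is the protease that breaks down proteins tagged with ubiquitin. Its core particle is a barrel of stacked rings, with alpha subunits forming the gate and beta subunits holding the catalytic sites inside. Regulatory particles dock on the barrel, where their lid removes ubiquitin and their ring of ATPases unfolds and feeds in the substrate. In macrophages and other antigen-presenting cells, interferon gamma induces catalytic subunits that replace the constitutive ones during assembly. The resulting immunoproteasome and the PA28 activator are known for shaping the peptides loaded on MHC class I molecules.

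The promoters of the interferon-inducible catalytic subunits, of Psme1 and of the constitutive catalytic subunits Psmb5 and Psmb6 are shown so that the 2 kinds of catalytic gene can be compared at sequence level. Each is the RefSeq window on GRCm38.p6 from 250 bases before to 50 bases after the annotated start, read 5′ to 3′ on the gene's strand. Capitals mark a match, on either strand, to the interferon-stimulated response element, as its core GAAANNGAA, to the gamma-interferon activation site TTCNNNGAA or to the antioxidant response element core TGACNNNGC. Psmb8 lay at chr17:34197945-34198244 on the plus strand, Psmb9 at chr17:34187281-34187580 on the minus strand and Psmb10 at chr8:105938343-105938642 on the minus strand. Psme1 lay at chr14:55578244-55578543 on the plus strand, Psmb5 at chr14:54617946-54618245 on the minus strand and Psmb6 at chr11:70525107-70525406 on the plus strand.
Psmb8 promoter: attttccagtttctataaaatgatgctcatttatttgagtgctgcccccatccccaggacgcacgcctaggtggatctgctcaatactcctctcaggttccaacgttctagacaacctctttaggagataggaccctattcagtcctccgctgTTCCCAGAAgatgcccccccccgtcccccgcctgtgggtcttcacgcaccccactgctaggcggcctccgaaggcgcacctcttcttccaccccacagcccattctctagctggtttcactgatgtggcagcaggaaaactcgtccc
Psmb9 promoter: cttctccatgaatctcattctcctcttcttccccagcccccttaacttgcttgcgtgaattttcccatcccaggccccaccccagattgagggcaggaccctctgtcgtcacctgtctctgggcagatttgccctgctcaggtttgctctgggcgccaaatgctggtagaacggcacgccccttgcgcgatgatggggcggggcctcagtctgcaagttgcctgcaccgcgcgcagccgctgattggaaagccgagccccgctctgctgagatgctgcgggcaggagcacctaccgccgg
Psmb10 promoter: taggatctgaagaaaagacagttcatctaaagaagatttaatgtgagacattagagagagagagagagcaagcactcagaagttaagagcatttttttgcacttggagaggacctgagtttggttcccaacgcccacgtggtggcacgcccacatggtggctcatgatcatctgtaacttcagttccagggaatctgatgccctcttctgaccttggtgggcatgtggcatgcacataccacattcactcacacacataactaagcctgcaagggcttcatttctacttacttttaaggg
Psme1 promoter: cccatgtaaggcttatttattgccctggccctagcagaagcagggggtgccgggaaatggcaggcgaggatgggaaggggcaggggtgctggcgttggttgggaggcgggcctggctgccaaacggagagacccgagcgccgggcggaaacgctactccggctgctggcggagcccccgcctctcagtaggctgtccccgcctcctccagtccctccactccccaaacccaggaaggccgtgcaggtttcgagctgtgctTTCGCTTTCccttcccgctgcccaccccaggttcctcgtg
Psmb5 promoter: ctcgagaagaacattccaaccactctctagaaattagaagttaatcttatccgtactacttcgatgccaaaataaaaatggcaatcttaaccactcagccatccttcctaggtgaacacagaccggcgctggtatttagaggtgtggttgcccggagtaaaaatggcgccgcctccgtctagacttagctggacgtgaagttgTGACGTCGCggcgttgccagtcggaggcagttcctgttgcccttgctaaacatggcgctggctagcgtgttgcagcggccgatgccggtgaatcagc
Psmb6 promoter: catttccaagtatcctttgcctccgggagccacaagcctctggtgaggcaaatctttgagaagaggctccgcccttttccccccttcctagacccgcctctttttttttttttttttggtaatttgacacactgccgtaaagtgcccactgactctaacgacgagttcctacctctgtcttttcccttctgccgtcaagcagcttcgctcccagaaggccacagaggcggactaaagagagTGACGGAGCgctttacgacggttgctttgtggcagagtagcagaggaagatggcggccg
No 2 of the motifs overlapped in these windows. The Psmb8 window held an activation site from position -97, the Psme1 window a response element from position 11, and the Psmb5 and Psmb6 windows an antioxidant core from positions -47 and -9, counted from the annotated start. The windows of Psmb9 and Psmb10 held no match, and neither did those of Psme2, which are not printed. The windows of Psmb8, Psmb9 and Psme1 lay inside the gene spans given below, which begin upstream of the RefSeq start. Of 41 proteasome genes with a promoter in the table, 17.1% (7 genes) held the response element core, against 8.56% of 32851 mouse promoters. Psme1 was the only interferon-inducible gene among these 7. The activation site was in 7.32% of the 41 (3 genes), against 8.3% of all promoters, and the antioxidant core in 14.6% (6 genes), against 12.4%. Proteasome genes were counted by gene, with a match in any window of the gene, and the background by window. The shares are therefore unlike measures. A match is a run of letters and not a bound site.

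From the deposited table, 25319624, 21030375 and 21378941 reads on genes were recovered in AC pretreated replicates 1, 2 and 3, and 22614774, 32694689 and 19353414 in untreated replicates 1, 2 and 3. Levels are in TPM, which counts the transcripts of a gene per 1000000 transcripts of its library and is scaled for transcript length. A log2 difference is the AC pretreated mean less the untreated mean of log2(TPM + 1), given with its SE. Because of the added 1 it understates changes of low genes. Means are given ± SD with n = 3 per group. All 8 macrophage markers were above 1 TPM in some library, and their summed level was 19186 to 23211 TPM in AC pretreated and 11077 to 20067 TPM in untreated libraries. The lowest sum was that of untreated replicate 1, in which Lyz2 was at 83.7 TPM, against 9270 to 12451 TPM elsewhere. Adgre1 (2633 TPM) and Csf1r (1288 TPM) were highest in that same library. The cause of its low Lyz2 was not tested. Of 8 T cell markers, 7 stayed below 1 TPM in every library, as did 4 of 4 fibroblast markers. The other T cell marker, Cd4, was at 9.48 to 16.8 TPM. Below 1 TPM everywhere were also 3 of 4 B cell, 2 of 4 dendritic cell and 2 of 4 epithelial markers. For neutrophil markers this held for 1 of 5, and for erythroid markers for 0 of 4. Neutrophil markers summed to 21.1 to 36.2 TPM in AC pretreated and 20.1 to 46.3 TPM in untreated libraries. Erythroid markers summed to 0.177 to 16.8 and 0 to 2.93 TPM in these groups. Transcripts of 12 trophoblast markers summed to 27.9, 131 and 0 TPM in AC pretreated and 14.5, 29.7 and 0 TPM in untreated replicates 1, 2 and 3. Replicate 3 of both groups therefore stood apart from the other 4 libraries, and AC pretreated replicate 3 also held 73936 TPM of the small RNA gene Gm23935, against 9648 to 13452 TPM elsewhere. Differences without Gm23935, and within the libraries with or without trophoblast transcripts, are given below. The part of the trophoblast and Gm23935 transcripts in the results was not tested as a cause. The labels do not tie the replicates to different cultures or mice, and p-values therefore measure the spread of these 6 libraries alone, which may be technical.

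The comparison asked whether proteasome transcripts differed between AC pretreated and untreated macrophages. None of the proteasome genes passed the test. Proteasome genes were abundant in both groups, and their summed level took 0.681%, 0.584% and 0.530% of all TPM in AC pretreated replicates 1, 2 and 3, against 0.599%, 0.625% and 0.634% in untreated replicates 1, 2 and 3. The untreated values lay inside the range of the AC pretreated ones. In bulk samples, fewer cells of a type and less RNA per cell cannot be told apart.

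Of the 49 genes, 48 reached 1 TPM in at least 3 libraries and were tested. The exception was Psmb11, the catalytic subunit of the thymus proteasome, which had 0 reads in all 6 libraries. A limit of 3 reads allows 0.0578 to 0.0980 TPM of Psmb11 per library, for counting error only. In limma with Benjamini-Hochberg adjustment over 12603 genes, 0 of 48 proteasome genes were called at an adjusted p of 0.05, against 0% of all genes tested. At an unadjusted p of 0.05 limma again took 0 of 48, against 1.3% of all genes (164 genes), and voom on recovered reads called 0 and took 0 unadjusted. The smallest unadjusted p in limma was 0.188, and each adjusted p was 1.0. Mean log2 levels, on which higher and lower means are counted throughout, were lower in AC pretreated cells for 40 of the 48 genes, against 70.6% of all genes tested. With median-of-ratios scaling they were lower for 18 of 48, against 6623 of all 12603 genes. With trimmed mean scaling they were lower for 15 of 48, against 6392 of all 12603 genes. The median log2 difference was -0.05 over the 48 genes and -0.07 over all genes tested. In the main fit, the data set bounds on the size of a difference between these 6 libraries. The bounds were not computed under other scalings or weights. On the scale of TPM + 1, the 95% confidence interval lay inside a 2-fold change for 48 of 48 genes, against 87.4% of all genes. It lay inside a 1.5-fold change for 41 of 48 genes, against 46.1% of all genes. For Psma8, with a mean of 2.08 TPM, the added 1 narrows the interval, so it sets no 2-fold bound on TPM itself.

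**Figure D1:**
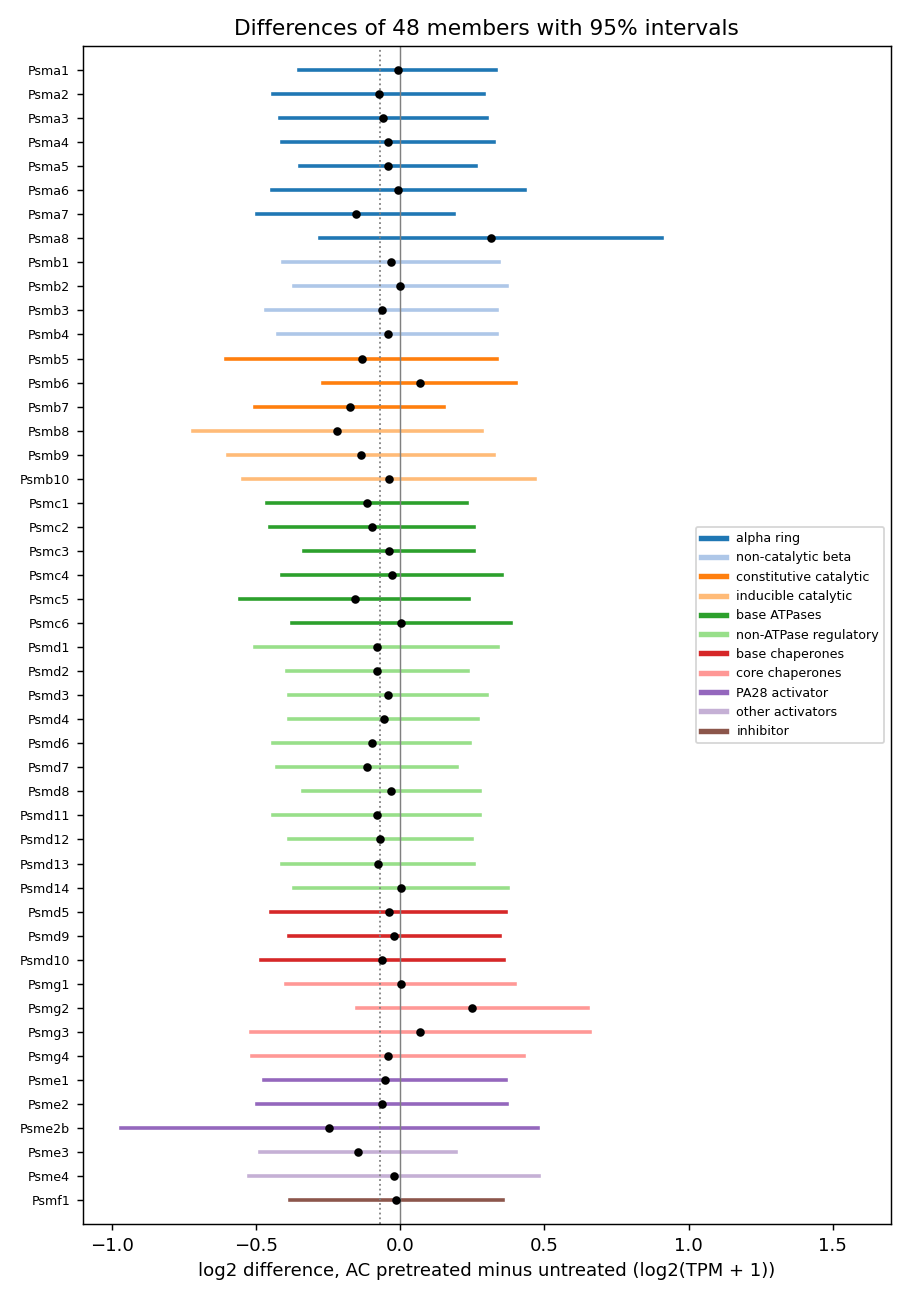
Log2 difference, AC pretreated less untreated, of log2(TPM + 1) for the 48 tested proteasome genes, grouped by role, with 95% confidence intervals from limma and a dotted line at the median of all genes tested (-0.07). Every interval crosses 0 and lies inside a 2-fold change of TPM + 1 in either direction.

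Psmb8, Psmb9 and Psmb10 encode the inducible catalytic subunits, also known as LMP7, LMP2 and MECL-1. On mm10, Psmb8 lies at chr17:34197721-34201454, Psmb9 at chr17:34181987-34187764 and Psmb10 at chr8:105935735-105938444. Psmb8 was at 259, 145 and 160.0 TPM in AC pretreated replicates 1, 2 and 3, against 212, 231 and 194 TPM in untreated replicates 1, 2 and 3. AC pretreated replicate 1 was the highest of the 6 libraries and the other AC pretreated libraries were the lowest, so the groups overlapped. Psmb8 averaged 188 ± 61.8 TPM in AC pretreated and 212 ± 18.6 TPM in untreated cells, a log2 difference of -0.22 ± 0.22 (95% interval -0.72 to 0.28, limma adjusted p = 1.0). Psmb9 was at 131, 88.04 and 82.2 TPM in AC pretreated replicates 1, 2 and 3, against 117, 116 and 92.8 TPM in untreated replicates 1, 2 and 3. AC pretreated replicate 1 was again the highest and the other AC pretreated libraries the lowest. Its log2 difference was -0.14 ± 0.20 (95% interval -0.60 to 0.33). Psmb10, the most abundant of the 3, was at 425, 253 and 256 TPM in AC pretreated replicates 1, 2 and 3, against 313, 354 and 269 TPM in untreated replicates 1, 2 and 3. The order of the AC pretreated libraries was again replicate 1 high and the others low, and the log2 difference was -0.04 ± 0.22 (95% interval -0.54 to 0.47).

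The size of the Psmb8 difference depended on AC pretreated replicate 1, which lay above the untreated libraries while the other AC pretreated libraries lay below them. Without that library the log2 difference of Psmb8 was -0.47 ± 0.12 with an unadjusted p of 0.0079 and an adjusted p of 0.775 in limma, and leaving out any other library gave -0.28 to -0.06. Psmb9 was at -0.34 and Psmb10 at -0.28 without that library, and without AC pretreated replicate 3 they were at -0.0073 and 0.08. Array quality weights gave AC pretreated replicate 1 a weight of 0.181, against 0.409 to 7.24 for the others. The largest went to AC pretreated replicate 2 (2.98) and untreated replicate 2 (7.24), so each group mean rested mostly on its replicate 2. With these weights Psmb8 alone of the 48 genes was called, at -0.58 ± 0.11 and a limma adjusted p of 0.0411. The same weights called 2.19% of all genes (276 genes). In the 4 libraries with trophoblast transcripts the Psmb8 difference was -0.19, and between the 2 libraries without them it was -0.28, with no test.

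Psme1 and Psme2 encode the alpha and beta subunits of PA28, the ring-shaped activator that opens the core without ATP. On mm10, Psme1 lies at chr14:55578123-55581529 and Psme2 at chr14:55587441-55591113. Psme1 had the highest mean of all proteasome genes and was at 449, 348 and 283 TPM in AC pretreated replicates 1, 2 and 3, against 365, 397 and 339 TPM in untreated replicates 1, 2 and 3. AC pretreated replicates 1 and 3 were the highest and lowest of the 6 libraries. Its log2 difference was -0.05 ± 0.18 (95% interval -0.47 to 0.37). Psme2 was at 349, 249 and 280.0 TPM in AC pretreated replicates 1, 2 and 3, against 259.9, 282 and 377 TPM in untreated replicates 1, 2 and 3. Untreated replicate 3 was the highest and AC pretreated replicate 2 the lowest, and the log2 difference was -0.06 ± 0.19 (95% interval -0.50 to 0.37). Psme2 was at 0.777, 0.715 and 0.991 times the TPM of Psme1 in AC pretreated replicates 1, 2 and 3, and at 0.712, 0.712 and 1.11 times in untreated replicates 1, 2 and 3. This ratio was highest in replicate 3 of each group, the libraries without trophoblast transcripts.

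Psme2b, a close copy of Psme2 at chr11:48945354-48946190, was at 55.2, 61.9 and 135 TPM in AC pretreated replicates 1, 2 and 3, against 97.04, 77.98 and 103 TPM in untreated replicates 1, 2 and 3. AC pretreated replicates 1 and 2 were the lowest and AC pretreated replicate 3 the highest of the 6 libraries. The log2 difference was -0.25 ± 0.32 (95% interval -0.97 to 0.48), with -0.65 without AC pretreated replicate 3 and -0.0055 without AC pretreated replicate 1. In the 4 libraries with trophoblast transcripts it was -0.57 ± 0.18 (limma unadjusted p = 0.0175, adjusted p = 0.891). Psme2b was there the 1 gene of the 48 with an unadjusted p under 0.05, against 599 of all 12603 genes. Between the 2 libraries without them the difference was 0.39, with no test. Of all 100-base windows in the Psme2b transcripts, 52.0% also occurred in Psme2, and 18.4% of Psme2 windows occurred in Psme2b, so reads could be split between them by the authors' counting.

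**Figure D2:**
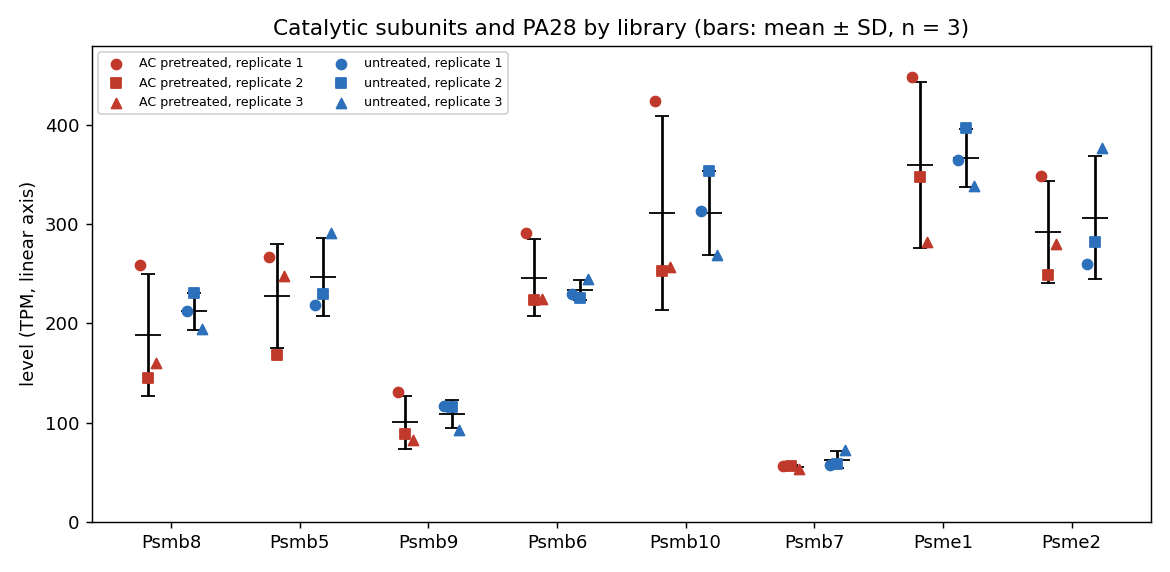
Level in TPM (linear axis) of the inducible and constitutive catalytic subunits and of Psme1 and Psme2 in each library (points), with the 3 AC pretreated libraries left of the 3 untreated ones and bars for mean ± SD. The AC pretreated points of Psmb8 (145 to 259 TPM) enclose the untreated ones (194 to 231 TPM).

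The constitutive catalytic subunits that these replace are encoded by Psmb5, Psmb6 and Psmb7, which carry the chymotrypsin-like, caspase-like and trypsin-like activities. On mm10, Psmb5 lies at chr14:54614119-54618022, Psmb6 at chr11:70525367-70527858 and Psmb7 at chr2:38588036-38644087. Psmb5 was at 267, 168 and 248 TPM in AC pretreated replicates 1, 2 and 3, against 219, 230.1 and 292 TPM in untreated replicates 1, 2 and 3. AC pretreated replicate 2 was the lowest and untreated replicate 3 the highest, and the groups overlapped. Its log2 difference was -0.13 ± 0.20 (95% interval -0.60 to 0.34), and 22.2% of its 100-base windows also occurred in other genes, mainly Gm3375. Psmb6 was at 291, 224 and 224 TPM in AC pretreated replicates 1, 2 and 3, against 229, 226 and 245 TPM in untreated replicates 1, 2 and 3. AC pretreated replicate 1 stood above the other 5 libraries, and the log2 difference was 0.07 ± 0.15 (95% interval -0.27 to 0.40). Psmb7 was at 55.7, 56.3 and 53.1 TPM in AC pretreated replicates 1, 2 and 3, against 57.4, 58.2 and 72.1 TPM in untreated replicates 1, 2 and 3. Psmb7 was the only gene of the 48 whose groups did not overlap, against 4.42% of all genes tested (3.48% with the AC pretreated group lower and 0.936% with it higher). It averaged 55.04 ± 1.69 TPM in AC pretreated and 62.6 ± 8.30 TPM in untreated cells, with a log2 difference of -0.17 ± 0.14 (95% interval -0.50 to 0.15, limma unadjusted p = 0.256). Its difference was -0.07 without untreated replicate 3, the highest library.

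The ratio of each inducible subunit to its constitutive partner shows the transcript balance of the 2 forms within a library. The ratio of Psmb8 to Psmb5 was 0.969, 0.867 and 0.645 in AC pretreated replicates 1, 2 and 3, against 0.971, 1.004 and 0.665 in untreated replicates 1, 2 and 3. It averaged 0.827 ± 0.166 in AC pretreated and 0.880 ± 0.187 in untreated cells, a log2 difference of -0.09 ± 0.26 (2-sided exact permutation p = 0.5). Both groups had their lowest value in replicate 3. The ratio of Psmb9 to Psmb6 was 0.451, 0.393 and 0.366 in AC pretreated replicates 1, 2 and 3, against 0.511, 0.513 and 0.379 in untreated replicates 1, 2 and 3. It averaged 0.404 ± 0.0433 and 0.468 ± 0.0766 in AC pretreated and untreated cells, a log2 difference of -0.20 ± 0.17 (2-sided exact permutation p = 0.3). Replicate 3 was again the lowest of each group. Psmb10 exceeded Psmb7 in every library, by 7.63, 4.49 and 4.83 times in AC pretreated replicates 1, 2 and 3, and by 5.45, 6.08 and 3.73 times in untreated replicates 1, 2 and 3. The log2 difference of that ratio was 0.14 ± 0.32 (2-sided exact permutation p = 0.7), and it was -0.10 without AC pretreated replicate 1.

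Over the 3 pairs the Benjamini-Hochberg adjusted exact permutation p was 0.7 for each, and 0.1 is the smallest p that 3 against 3 libraries allow. The inducible genes took 57.0%, 52.1% and 48.7% of the TPM of the 6 catalytic genes in AC pretreated replicates 1, 2 and 3, against 56.0%, 57.7% and 47.7% in untreated replicates 1, 2 and 3. Transcripts of both forms were present in every library, and the replicate 3 libraries had the lowest inducible share of each group. Within the 4 libraries with trophoblast transcripts the log2 differences of the ratios were -0.11 for Psmb8 to Psmb5, -0.28 for Psmb9 to Psmb6 and 0.02 for Psmb10 to Psmb7. Between the 2 libraries without them they were -0.04, -0.05 and 0.37, with no test.

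**Figure D3:**
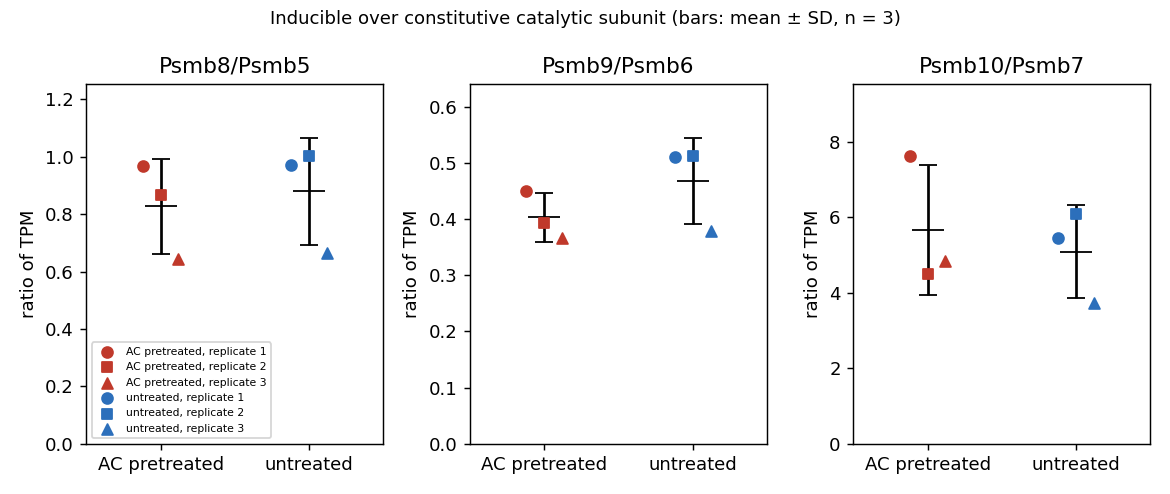
Ratio of TPM of each inducible catalytic subunit to its constitutive partner in each library (points, linear axis from 0), AC pretreated left of untreated, with bars for mean ± SD. For Psmb8 to Psmb5 and Psmb9 to Psmb6 the lowest point of each group is replicate 3, and the groups overlap for all 3 pairs.

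The gate-forming alpha ring is encoded by Psma1 to Psma7, with Psma8 as a form known from testis. Of the 8 genes, 7 had a lower mean in AC pretreated cells and none was called, with a median log2 difference of -0.04. The most abundant was Psma6, at 350.0, 333 and 221 TPM in the AC pretreated libraries, against 272, 313 and 307 TPM in the untreated libraries, a log2 difference of -0.01 ± 0.19. AC pretreated replicate 1 was the highest and AC pretreated replicate 3 the lowest library for Psma6. Psma7 was at 113, 90.7 and 83.2 TPM in the AC pretreated libraries, against 103, 105 and 108 TPM in the untreated libraries, a log2 difference of -0.15 ± 0.15 (95% interval -0.50 to 0.19, limma unadjusted p = 0.331). The 3 untreated libraries of Psma7 lay close together and inside the AC pretreated range. Psma8 was the lowest of the 48 genes at 1.64, 3.11 and 2.54 TPM in the AC pretreated libraries, against 1.73, 1.37 and 2.07 TPM in the untreated libraries, from 31 to 53 reads per library, against 128 to 9498 reads for the other 47 genes. Its log2 difference of 0.32 ± 0.26 (95% interval -0.28 to 0.91) came with overlapping groups.

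The non-catalytic beta subunits, Psmb1 to Psmb4, complete the inner rings. Their median log2 difference was -0.04, with 3 of 4 means lower in AC pretreated cells and none called. Psmb4, the most abundant of them, was at 264, 204 and 177 TPM in the AC pretreated libraries, against 208, 223 and 224 TPM in the untreated libraries, a log2 difference of -0.04 ± 0.17. Psmb3 was at 125, 102 and 82.5 TPM in the AC pretreated libraries, against 104, 117 and 98.98 TPM in the untreated libraries (-0.06 ± 0.17). Psmb1 was at 112, 94.96 and 75.9 TPM in the AC pretreated libraries, against 92.5, 97.4 and 95.7 TPM in the untreated libraries (-0.03 ± 0.16). In Psmb1, Psmb3 and Psmb4 alike, AC pretreated replicate 1 was the highest and AC pretreated replicate 3 the lowest of the 6 libraries.

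The ATPases Psmc1 to Psmc6 form the ring that unfolds the substrate. Of 6 genes, 5 had a lower mean in AC pretreated cells, none was called and the median log2 difference was -0.07. Psmc5 was at 313, 215 and 210.1 TPM in the AC pretreated libraries, against 267, 273 and 269 TPM in the untreated libraries, a log2 difference of -0.16 ± 0.17 (95% interval -0.56 to 0.24). The untreated libraries of Psmc5 were tightly grouped (SD 2.92 TPM), while AC pretreated replicate 1 lay above them and the other AC pretreated libraries below. Without AC pretreated replicate 1 the Psmc5 difference was -0.34 and its unadjusted limma p was under 0.05, as were those of Psma7 (-0.28), Psmb8 and Psmb9, with none called after adjustment. These were 4 of the 48 genes, against 6.32% of all genes (797 genes) in the same fit. Leaving out any 1 library gave -0.34 to -0.06 for Psmc5 and -0.28 to -0.06 for Psma7. Psmc1 was at 297, 235 and 229 TPM in the AC pretreated libraries, against 254, 262 and 303 TPM in the untreated libraries (-0.11 ± 0.15). Psmc2, the least abundant ATPase gene, was at 82.6, 72.98 and 59.7 TPM in the AC pretreated libraries, against 79.3, 77.5 and 71.99 TPM in the untreated libraries (-0.10 ± 0.15).

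The other 11 regulatory particle genes, scaffold, ubiquitin receptor and lid subunits of the Psmd group, had 10 lower means in AC pretreated cells, a median log2 difference of -0.07 and none called. Psmd8, a lid subunit and the most abundant of them, was at 239, 236 and 194 TPM in the AC pretreated libraries, against 227, 229.8 and 223 TPM in the untreated libraries, a log2 difference of -0.03 ± 0.13 (95% interval -0.34 to 0.28). Psmd7, the lid partner of the deubiquitinase Psmd14, was at 115, 109.6 and 94.4 TPM in the AC pretreated libraries, against 109, 111 and 124 TPM in the untreated libraries (-0.11 ± 0.14). Psmd6, another lid subunit, was at 70.5, 83.1 and 63.4 TPM in the AC pretreated libraries, against 75.3, 72.7 and 83.7 TPM in the untreated libraries (-0.10 ± 0.15). These 3 genes shared their lowest library, AC pretreated replicate 3. Psmd11, the least abundant of the 11, was at 24.1, 27.9 and 32.1 TPM in the AC pretreated libraries, against 29.4, 28.1 and 31.3 TPM in the untreated libraries (-0.08 ± 0.16), and there AC pretreated replicate 3 was the highest and AC pretreated replicate 1 the lowest library.

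Assembly chaperones hold intermediates of the particle and leave the finished enzyme. The core chaperones Psmg1 to Psmg4 had a median log2 difference of 0.04, with 3 of 4 means higher in AC pretreated cells. Psmg2, with the smallest p of the 48 genes, was at 31.6, 30.2 and 23.9 TPM in the AC pretreated libraries, against 20.6, 27.3 and 23.6 TPM in the untreated libraries, a log2 difference of 0.25 ± 0.17 (95% interval -0.15 to 0.65, limma unadjusted p = 0.188, adjusted p = 1.0). Its groups overlapped through AC pretreated replicate 3 and untreated replicate 2, and its difference kept its sign when any library was left out (0.15 to 0.37). Psmg3 was at 12.01, 9.37 and 6.36 TPM in the AC pretreated libraries, against 8.17, 10.8 and 6.93 TPM in the untreated libraries (0.07 ± 0.26). Psmg4 was at 111, 91.3 and 64.3 TPM in the AC pretreated libraries, against 91.7, 96.5 and 80.4 TPM in the untreated libraries (-0.04 ± 0.21). For Psmg2, Psmg3 and Psmg4 alike, AC pretreated replicate 1 was the highest of the 6 libraries. The base chaperones Psmd5, Psmd9 and Psmd10 all had slightly lower means in AC pretreated cells, with log2 differences of -0.04 ± 0.18, -0.02 ± 0.16 and -0.06 ± 0.18. Psmd10, also known as gankyrin, was at 68.5, 75.3 and 55.6 TPM in the AC pretreated libraries, against 59.7, 64.2 and 84.95 TPM in the untreated libraries. Psmd5 was at 11.8, 15.2 and 11.4 TPM in the AC pretreated libraries, against 13.3, 14.3 and 11.8 TPM in the untreated libraries. Psmd9 was at 13.3, 10.95 and 12.7 TPM in the AC pretreated libraries, against 13.2, 12.5 and 11.8 TPM in the untreated libraries. All 3 genes had overlapping groups.

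Among the remaining activators, Psme3 encodes the nuclear PA28 gamma and Psme4 encodes PA200, which is known for acting on histones. Psme3 was at 72.5, 96.6 and 89.2 TPM in the AC pretreated libraries, against 92.2, 91.8 and 101 TPM in the untreated libraries, a log2 difference of -0.15 ± 0.15 (95% interval -0.49 to 0.19). Psme4 was at 22.4, 39.1 and 38.2 TPM in the AC pretreated libraries, against 33.6, 31.9 and 32.7 TPM in the untreated libraries, a log2 difference of -0.02 ± 0.22 (95% interval -0.52 to 0.48). For both genes AC pretreated replicate 1 was the lowest of the 6 libraries, whereas it was the highest for Psmb6, Psmb8, Psmb9 and Psmb10. Psmf1, the inhibitor PI31, was at 14.9, 18.2 and 16.3 TPM in the AC pretreated libraries, against 17.9, 17.2 and 14.8 TPM in the untreated libraries, a log2 difference of -0.01 ± 0.16 (95% interval -0.38 to 0.36).

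**Figure D4:**
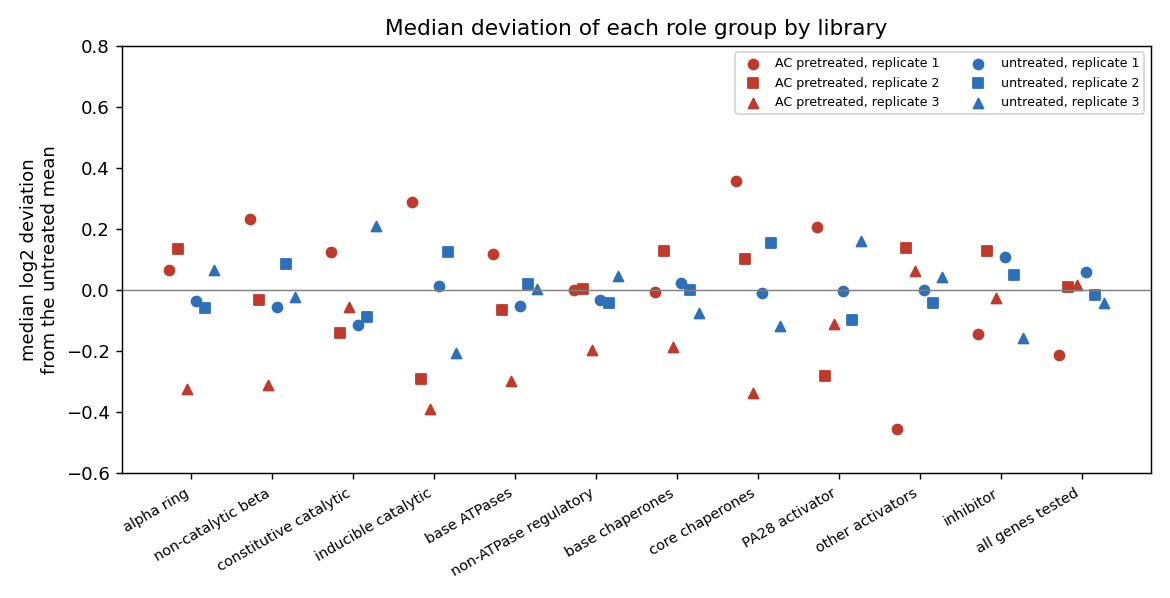
Median log2 deviation from the untreated mean in each library, by role group and over all genes tested, AC pretreated libraries left of untreated ones. In AC pretreated replicate 1 the inducible catalytic genes stand at 0.29 and the activators Psme3 and Psme4 at -0.46, while in AC pretreated replicate 3 the alpha ring stands at -0.32.

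Side by side, the 5 interferon-inducible genes had a median log2 difference of -0.06, with 5 lower means of 5, and the 32 constitutive subunits had -0.06, with 27 lower means of 32. With median-of-ratios scaling both medians were 0.01. The 95% interval lay inside a 1.5-fold change for 3 of the 5 inducible genes and 30 of the 32 constitutive ones. The difference between the 2 sets was not tested. In AC pretreated replicates 1, 2 and 3 the median log2 deviation from the untreated mean was 0.29, -0.29 and -0.37 for the inducible genes and 0.08, -0.02 and -0.26 for the constitutive ones. Both sets were low in AC pretreated replicate 3. The median SD within a group was 0.36 in AC pretreated and 0.19 in untreated libraries for the inducible genes, and 0.22 in AC pretreated and 0.08 in untreated libraries for the constitutive ones.

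The AC pretreated libraries differed more among themselves than the untreated ones did. The SD of log2 levels was larger in the AC pretreated group for 41 of 48 proteasome genes (85.4%), against 73.3% of all genes tested, with medians of 0.23 in AC pretreated and 0.11 in untreated libraries. AC pretreated replicate 1 was the highest library for 23 of 48 genes (47.9%), against 11.6% of all genes, and AC pretreated replicate 3 was the lowest for 31 of 48 (64.6%), against 19.0% of all genes. Both held for 16 genes. The median deviation from the untreated mean was 0.09, -0.00067 and -0.26 for the proteasome genes in AC pretreated replicates 1, 2 and 3, against -0.21, 0.010 and 0.017 for all genes. The median proteasome gene thus stood above the median gene in AC pretreated replicate 1 and below it in AC pretreated replicate 3. Leaving out 1 library turned the sign of the difference for 36 of the 48 genes. No such count over all genes is given, so it cannot be read as particular to proteasome genes. The median over the 48 genes was -0.12 without AC pretreated replicate 1 and 0.03 without AC pretreated replicate 3. It was 0.04 in the 4 libraries with trophoblast transcripts, with 29 of 48 genes higher, against 3624 of all 12603 genes. Between the 2 libraries without them it was -0.26, with 9 of 48 higher, against 7061 of all 12603 genes, and no test.

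Deviations went with merged exon length in AC pretreated replicate 1 and in some of the other libraries. Over the 48 proteasome genes, Spearman's rho between merged exon length and the log2 deviation from the untreated mean was -0.43, 0.17 and 0.20 in AC pretreated replicates 1, 2 and 3, and 0.42, -0.04 and -0.21 in untreated replicates 1, 2 and 3. Over 12405 genes with a length, rho was -0.45, 0.09 and 0.35 in AC pretreated replicates 1, 2 and 3, and 0.10, -0.22 and 0.05 in untreated replicates 1, 2 and 3. These correlations are across genes that share a library and are a description. The 15 proteasome genes under 2000 bases had median deviations of 0.21, -0.06 and -0.27 in AC pretreated replicates 1, 2 and 3, and the 7 genes of at least 5000 bases had -0.14, 0.13 and 0.02. Psmb10 (1705 bases) and Psme2 (1764 bases) were among the shorter genes and Psmd11 (6383 bases) and Psme4 (8382 bases) among the longer ones, while Psmb8 (3381 bases) and Psmb9 (3660 bases) lay between. With the length trend of each library removed, 27 of 48 genes were higher in AC pretreated cells, against 5950 of all 12405 genes. The median log2 difference of the 48 was then 0.0091 and none was called.

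**Figure D5:**
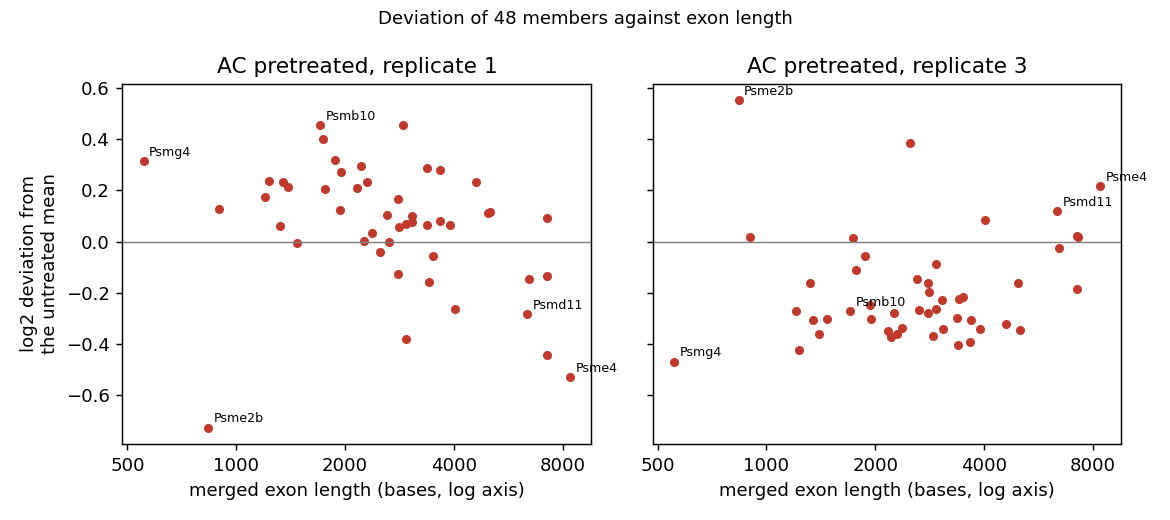
Log2 deviation from the untreated mean against merged exon length in bases (log axis) for the 48 proteasome genes (points) in AC pretreated replicates 1 and 3. Genes under 2000 bases have a median of 0.21 in AC pretreated replicate 1 and -0.27 in AC pretreated replicate 3, and rho is -0.43 and 0.20 in these libraries.

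Other genes of the pathway were described as whole lists, counted in the main scaling only. Over all genes tested, 70.6% had a lower mean in that scaling, with a median log2 difference of -0.07. Of 10 tested genes for associated and assembly factors, 3 had a higher and 7 a lower mean in AC pretreated cells, with a median log2 difference of -0.05. Uchl5, a deubiquitinase of the regulatory particle, was at 27.3, 31.8 and 27.4 TPM in the AC pretreated libraries, against 26.7, 28.8 and 43.8 TPM in the untreated libraries (-0.16 ± 0.20). Sem1, a small lid subunit, was at 111, 72.03 and 86.02 TPM in the AC pretreated libraries, against 88.3, 93.6 and 106 TPM in the untreated libraries (-0.11 ± 0.18). All 5 genes that control proteasome transcription had lower means, with a median of -0.17. Nfe2l1, the factor that raises proteasome genes when proteolysis fails, was at 86.9, 84.9 and 117 TPM in the AC pretreated libraries, against 122, 114 and 102 TPM in the untreated libraries, and AC pretreated replicate 3 overlapped the untreated libraries (-0.23 ± 0.16). Stat3, a cytokine-activated factor, was at 50.01, 56.3 and 73.6 TPM in the AC pretreated libraries, against 72.5, 67.2 and 60.4 TPM in the untreated libraries (-0.17 ± 0.17). None of these genes was called or had an unadjusted limma p under 0.05.

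All 13 genes for ubiquitin supply and the p97 unfoldase had lower means in AC pretreated cells, against 70.6% of all genes tested. Their median was -0.10 and none was called. For antigen processing, which uses proteasome products, 4 of 12 genes had a higher and 8 a lower mean, with a median of -0.08 and none called. The peptide transporter gene Tap1, beside Psmb8 and Psmb9 in the MHC region, was at 181, 141 and 146 TPM in the AC pretreated libraries, against 205, 191 and 142 TPM in the untreated libraries (-0.19 ± 0.18). Its partner Tap2 was at 76.8, 52.4 and 67.04 TPM in the AC pretreated libraries, against 79.1, 76.7 and 66.1 TPM in the untreated libraries (-0.19 ± 0.17). In both transporter genes the untreated libraries overlapped the AC pretreated range.

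Tapbpl and Irf1 were the 2 genes of these lists whose groups did not overlap, both lower in AC pretreated cells. Tapbpl, which encodes the peptide editor TAPBPR, was at 48.8, 45.2 and 50.4 TPM in the AC pretreated libraries, against 59.8, 59.2 and 56.3 TPM in the untreated libraries. It averaged 48.1 ± 2.64 TPM in AC pretreated and 58.4 ± 1.86 TPM in untreated cells, a log2 difference of -0.28 ± 0.13 (limma unadjusted p = 0.061, adjusted p = 1.0). Irf1, the interferon-induced factor known for raising Psmb8, Psmb9 and Psmb10, was at 98.6, 89.3 and 75.2 TPM in the AC pretreated libraries, against 108, 113 and 99.1 TPM in the untreated libraries. It averaged 87.7 ± 11.7 TPM in AC pretreated and 107 ± 7.13 TPM in untreated cells, a log2 difference of -0.29 ± 0.15 (limma unadjusted p = 0.0847, adjusted p = 1.0). Neither passed the test, and 4.42% of all genes tested had groups that did not overlap.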

How the data were processed

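Poly(A) RNA of the 6 BMDM libraries was extracted with TRIzol and sequenced in paired-end runs on an Illumina NovaSeq, per the labels' protocols. Tools named in the submitters' processing notes are featureCounts 2.0.3 with Subread, and STAR 2.7.10a; the build named is mm10, and no role is stated for any of them. The annotation, the strand setting and the treatment of multi-mapping reads were not given in the sources used. The authors deposited a signal value per gene, named TPM, whose library totals were 54732 to 92831. Multiplied by the GENCODE M21 merged exon length and divided by 8.57, the deposited signal gave whole reads in all libraries for 23508 of 23870 genes (98.5%, tolerance 0.02 reads), so it holds reads per exon base, with library size left in. For the proteasome genes, 48 of 49 gave whole reads. Of the 49 genes, 35 shared no 100-base window with transcripts of other genes, and 5 shared over 10% of theirs (Psme2b, Psma5, Psmb5, Psme2 and Psma3).

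Each library was rescaled to 1000000 to give TPM. The test had been written for values in TPM and was kept. The 12603 genes that reached 1 TPM in 3 or more libraries entered limma 3.58.1 in R 4.3.3 (eBayes with trend) on log2(TPM + 1). Tests were 2-sided, p-values were adjusted after Benjamini and Hochberg, and genes were called at an adjusted p of 0.05. The test was run on simulated reads with the same dispersion in both groups. The AC pretreated libraries spread more than the untreated ones, so that run says nothing of power or error rates here. Catalytic ratios were compared by exact permutation. Promoters are RefSeq entries of GRCm38.p6, and the response element was cut to its core after matches of a longer form had been seen. Tables and figures were made in Python 3.11.15 with scipy 1.17.1, numpy 2.4.6, pandas 2.3.3 and matplotlib 3.10.9. The members and lists were chosen with earlier results of these data known. Named were the catalytic, PA28, activator and inhibitor genes, the highest, the lowest and the 2 smallest-p genes of each role group, genes whose groups do not overlap, and per other list the 2 smallest-p genes with Tap1 and Tap2. Of these, 2 genes are not reported here. Psmd14, Gm23935, Lyz2, Cd4 and Gm3375 fall outside that rule and were chosen after values were seen. Alternatives were other pseudocounts, filters, scalings, variance models and sets of libraries. Rescaling without Gm23935 and removal of the trend with exon length were chosen after seeing the data.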

Additional observations from a re-analysis of the deposited data

How the results depend on the processing

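Proteasome genes had 0 calls in the main limma test and under the other pseudocounts, filters, scalings, fits and sets of libraries that were run, except 1 call (Psmb8) with array quality weights. Over all genes, 276 passed the threshold with array quality weights, 29 with the values as deposited, whose library totals follow depth, and 1 with limma without trend, against 0 in the main test. Array quality weights rested mostly on replicate 2 of each group (2.98 in AC pretreated and 7.24 in untreated). With them the median was -0.36 over the 5 interferon-inducible genes, -0.02 over the 32 constitutive subunits and -0.04 over the 48 genes. Between the 2 libraries without trophoblast transcripts these medians were -0.26, -0.31 and -0.26. Where no cause is named, the cause was not tested. The log2 difference turned sign for part of the 48 proteasome genes under other settings, with these values for the named ones and for named genes of the other lists. Turns over all genes are not given, so the counts cannot be read as particular to proteasome genes. With array quality weights 18 of 48 turned, the named genes being Psma6 0.055, Psmb6 -0.0031, Psmd5 0.054, Psmd6 0.12, Psmd8 0.014, Psmd10 0.16, Psme3 0.031, Psme4 0.23, Psmf1 0.052, Psmg3 -0.14 and Uchl5 0.082. With median-of-ratios scaling 22 of 48 turned, the named genes being Psma6 0.063, Psmb1 0.038, Psmb3 0.0051, Psmb4 0.026, Psmb10 0.032, Psmd5 0.025, Psmd8 0.039, Psmd9 0.046, Psmd10 0.0075, Psme1 0.018, Psme2 0.0066, Psme4 0.045, Psmf1 0.051 and Psmg4 0.028. In the 4 libraries with trophoblast transcripts 21 of 48 turned, the named genes being Psma6 0.23, Psmb1 0.12, Psmb3 0.034, Psmb4 0.11, Psmc1 0.030, Psmd6 0.049, Psmd7 0.024, Psmd8 0.058, Psmd10 0.21, Psme1 0.054, Psme2 0.12, Psmg4 0.10 and Uchl5 0.085. Between the 2 libraries without trophoblast transcripts 13 of 48 turned, the named genes being Psmb6 -0.12, Psmd9 0.10, Psmd11 0.039, Psme2b 0.39, Psme4 0.22, Psmf1 0.13, Psmg3 -0.11, Tap1 0.036, Tap2 0.020, Nfe2l1 0.20 and Stat3 0.28. Rescaled without Gm23935 8 of 48 turned, the named genes being Psma6 0.026, Psmb1 0.0019, Psmd8 0.0029, Psmd9 0.011, Psme4 0.010 and Psmf1 0.017. With the length trend removed 19 of 48 turned, the named genes being Psma6 0.049, Psmb1 0.039, Psmb4 0.0082, Psmb10 0.016, Psmd5 0.030, Psmd8 0.032, Psmd9 0.050, Psme1 0.0021, Psme4 0.045, Psmf1 0.056 and Psmg4 0.018. With trimmed mean scaling 25 of 48 turned, the named genes being Psma6 0.070, Psmb1 0.045, Psmb3 0.012, Psmb4 0.033, Psmb10 0.039, Psmd5 0.031, Psmd8 0.046, Psmd9 0.052, Psmd10 0.014, Psme1 0.025, Psme2 0.013, Psme4 0.051, Psmf1 0.058 and Psmg4 0.035. With the values as deposited 6 of 48 turned, the named genes being Psmb6 -0.00041 and Psmg3 -0.0027. With voom on recovered reads 12 of 48 turned, the named genes being Psma6 0.036, Psmb1 0.012, Psmb10 0.0048, Psmd8 0.012, Psmd9 0.022, Psme4 0.016, Psmf1 0.024 and Psmg4 0.0021. Leaving out 1 library in turn, 36 of 48 turned, and the named genes that turned spanned Psma6 -0.13 to 0.20, Psmb1 -0.16 to 0.12, Psmb3 -0.21 to 0.085, Psmb4 -0.20 to 0.086, Psmb5 -0.26 to 0.072, Psmb6 -0.057 to 0.13, Psmb10 -0.28 to 0.090, Psmc2 -0.20 to 0.026, Psmd5 -0.16 to 0.034, Psmd8 -0.083 to 0.069, Psmd9 -0.074 to 0.057, Psmd10 -0.16 to 0.089, Psmd11 -0.18 to 0.020, Psme1 -0.22 to 0.11, Psme2 -0.20 to 0.10, Psme4 -0.16 to 0.23, Psmf1 -0.092 to 0.052, Psmg3 -0.12 to 0.29, Psmg4 -0.22 to 0.17, Uchl5 -0.30 to 0.050, Sem1 -0.28 to 0.031, the ratio Psmb8/Psmb5 -0.27 to 0.083 and the ratio Psmb10/Psmb7 -0.10 to 0.28.

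The deviations of same-numbered libraries correlated at -0.06, 0.0098 and 0.17 over 12603 genes, and AC pretreated replicate 1 correlated best with untreated replicate 2 (0.34). The labels give no shared origin for a number and not every correlation was above 0.1, so the numbers were not taken as pairs, although replicate 3 of both groups lacked trophoblast transcripts. With the replicate number as a block, limma called 0 genes (225 at an unadjusted p of 0.05) and 0 proteasome genes. In this balanced design the block cannot move the differences themselves, which were -0.09, -0.20 and 0.14 for the ratios. Within numbers 1, 2 and 3 the log2 ratio differences were -0.0022, -0.21 and -0.04 for Psmb8/Psmb5, -0.18, -0.38 and -0.05 for Psmb9/Psmb6, and 0.48, -0.44 and 0.37 for Psmb10/Psmb7. Blocked exact permutation p-values were 0.25, 0.25 and 0.75, and 0.25 is the smallest that 3 pairs allow. Psma8 rested on 31 to 53 reads per library. With 3 libraries per group, log2 differences had a median SE of 0.16 over the 48 genes and 0.21 over all genes.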

Other observations

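The ratio of Psme2b to Psme2, which share sequence, was 0.158, 0.249 and 0.483 in AC pretreated replicates 1, 2 and 3, against 0.373, 0.276 and 0.273 in untreated replicates 1, 2 and 3. AC pretreated replicate 3, the highest, was also the library with 73936 TPM of Gm23935. The part of shared reads in this ratio was not tested.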
